A study of Homo sapiens with 2 samples.

Results

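Tissue factor, the anticoagulant regulators that act around it and the receptors that thrombin cleaves were examined in 2 untreated human prostate cancer (PCa) cell lines. The genes were chosen by symbol in the deposited expression table, and all 9 were found among its 21382 genes: F3, TFPI, TFPI2, THBD, PROCR, F2R, F2RL1, F2RL2 and F2RL3. MDA PCa 2b is an established line from a bone metastasis, grown in a serum-supplemented F-12 medium with cholera toxin, epidermal growth factor, hydrocortisone and insulin. RC77 T/E is an immortalized line from a primary prostate tumor, grown without added serum in Keratinocyte-SFM, with pituitary extract and the same growth factor as supplements. Each line gave 1 total RNA library, so no value below has a replicate error, no difference has a replicate check, and no test was made. Expression is given in TPM, a transcript abundance corrected for gene length and scaled to the same sum in each library, so levels can be compared between genes. The sequencing depth is unknown, and how far a TPM near 0 lies from no signal cannot be stated. Cell line and culture medium cannot be told apart in this design.

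Tissue factor, the product of F3, is a membrane protein that binds factor VIIa and starts coagulation, which ends in thrombin. TFPI blocks that first complex, while thrombomodulin (THBD) and the endothelial protein C receptor (PROCR) turn thrombin toward activation of protein C, an anticoagulant. Thrombin also signals to cells by cutting the outer end of protease-activated receptors (PARs), and the new end then switches the same receptor on. F2R encodes PAR1, F2RL1 encodes PAR2, which trypsin-like proteases rather than thrombin cleave, F2RL2 encodes PAR3 and F2RL3 encodes PAR4. Tumors that carry tissue factor can activate platelets through thrombin, and the study from which the libraries come asked which surface molecules connect PCa cells with platelets.

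The start regions of 4 of these genes are shown because they belong to genes that differed between the lines by 2-fold or more, F3, TFPI2 and PROCR toward RC77 T/E and F2RL3 toward MDA PCa 2b. Each is the stretch of 250 bases before the RefSeq start (GRCh38.p14), read 5′ to 3′ on the strand of the gene. F3 is at chr1:94541760-94542009 on the minus strand, TFPI2 at chr7:93890754-93891003 on the minus strand, PROCR at chr20:35171822-35172071 on the plus strand and F2RL3 at chr19:16888749-16888998 on the plus strand. Capitals mark every match, on either strand, to TGANTCA (the motif of the factor AP-1), TATAAA (the TATA box) or CACGTG (an E box). GGGCGG, the GC box, was searched as well but not marked, and no match overlaps another.
F3: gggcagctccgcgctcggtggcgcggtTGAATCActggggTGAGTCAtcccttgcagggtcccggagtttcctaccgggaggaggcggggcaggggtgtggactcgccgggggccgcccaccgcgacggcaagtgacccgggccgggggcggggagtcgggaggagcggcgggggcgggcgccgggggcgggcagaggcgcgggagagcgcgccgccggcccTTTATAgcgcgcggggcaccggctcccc
TFPI2: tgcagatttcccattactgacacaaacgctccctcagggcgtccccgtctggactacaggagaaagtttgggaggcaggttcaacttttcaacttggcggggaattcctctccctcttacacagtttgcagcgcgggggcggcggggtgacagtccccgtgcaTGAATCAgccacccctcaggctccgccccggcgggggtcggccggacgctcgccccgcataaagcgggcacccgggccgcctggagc
PROCR: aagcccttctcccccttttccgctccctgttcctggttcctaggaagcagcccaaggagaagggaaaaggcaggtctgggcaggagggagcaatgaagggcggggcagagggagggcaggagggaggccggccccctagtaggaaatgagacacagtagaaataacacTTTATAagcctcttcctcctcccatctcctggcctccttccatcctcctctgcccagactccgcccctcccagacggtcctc
F2RL3: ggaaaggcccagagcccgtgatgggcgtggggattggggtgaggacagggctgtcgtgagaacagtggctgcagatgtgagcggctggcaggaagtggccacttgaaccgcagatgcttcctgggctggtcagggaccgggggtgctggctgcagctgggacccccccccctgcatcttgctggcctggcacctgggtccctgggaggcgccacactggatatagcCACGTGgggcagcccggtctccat
The F3 stretch holds 2 matches to TGANTCA, beginning 223 and 210 bases before the start, 1 match to TATAAA on the opposite strand 28 bases before it and 4 GC boxes. TFPI2 has 1 match to TGANTCA, 87 bases before its start, and 2 GC boxes. PROCR has 1 match to TATAAA on the opposite strand, 82 bases before its start, and 2 GC boxes. F2RL3 has a single match to CACGTG, 24 bases before its start, and none to the other 3 motifs. Of the 35116 RefSeq start regions of this length, 6.57% held TGANTCA, 10.7% TATAAA, 42.6% GGGCGG and 6.34% CACGTG. Among the other members, F2RL2 held 1 TGANTCA and F2RL1 held 2 GC boxes, and TFPI held none of the 4 motifs. These are matches of letters and do not show that a factor binds there. THBD and F2R have no start region shown. The TFPI stretch lies before a RefSeq start at 187554435, whereas the gene starts at 187565760 in the deposited table.

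Transcripts of 4 of the 9 members reached 1 TPM in MDA PCa 2b, namely F3, PROCR, F2RL1 and F2RL3. In RC77 T/E cells 6 members reached 1 TPM, namely F3, TFPI2, THBD, PROCR, F2R and F2RL1. F3, PROCR and F2RL1 passed this level in both lines, and TFPI and F2RL2 stayed below it in both. Over all 21382 genes, 49.6% reached 1 TPM in MDA PCa 2b compared with 52.8% for RC77 T/E. A gene was called expressed where its mean reached 1 TPM, which held for 7 of the 9 members and for 11624 of all 21382 genes. For comparison between the lines the log2 ratio between RC77 T/E and MDA PCa 2b, positive where RC77 T/E was higher, was taken after adding 1 TPM to each value, which understates the difference of low genes. By this ratio 5 of the 9 members (F3, TFPI2, THBD, PROCR and F2R) were higher in RC77 T/E by 2-fold or more, beside 19.4% of the 11624 expressed genes. F2RL3 alone was higher in MDA PCa 2b by 2-fold or more, beside 20.0% of the expressed genes. The remaining 3 (TFPI, F2RL1 and F2RL2) differed by less. The median log2 ratio was 3.41 over the 9 members, 3.78 over the 7 expressed members and -0.15 over the expressed genes. TFPI and F2RL2 are not among the expressed genes. Of the 7 members that are, 5 were higher in RC77 T/E by 2-fold or more and 1 in MDA PCa 2b. Where a pair of values is given without names, MDA PCa 2b comes first. In bulk RNA, fewer cells with a transcript and less of it per cell cannot be told apart.

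**Figure D1:**
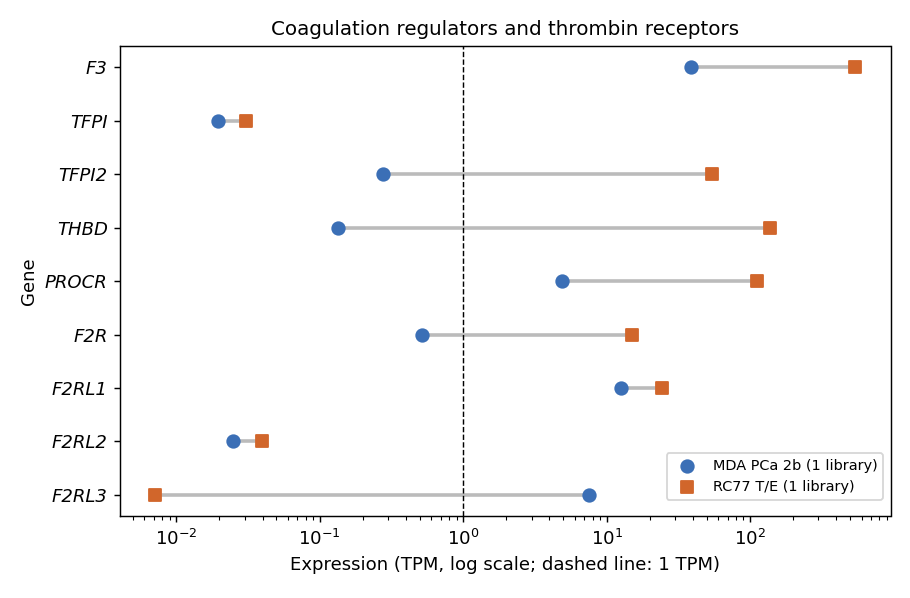
Expression of the 9 members in MDA PCa 2b (circles) and RC77 T/E (squares), in TPM on a log axis, with 1 library per line and a gray bar joining the 2 values of a gene. THBD, TFPI2 and F2R cross the dashed line at 1 TPM toward RC77 T/E, F2RL3 crosses it toward MDA PCa 2b, and TFPI and F2RL2 lie left of it in both lines.

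F3 (ENSG00000117525) lies on chromosome 1 of GRCh38 from 94529173 to 94541759, on the minus strand. It was the highest of the 9 members in both lines, at 38.6 TPM in MDA PCa 2b compared with 544.2 TPM for RC77 T/E, a 14.1-fold difference. In RC77 T/E cells between 167 and 893 genes had a higher TPM than F3, where the range comes from genes whose decimal mark is open in the deposited table. In MDA PCa 2b the corresponding range was 1062 to 6528 genes. The log2 ratio of F3 was 3.78, and 383 of the 11624 expressed genes, or 3.29%, had a larger one. This share and those of the other members below take open decimal marks at their lowest position, and higher positions could change them. No protein-coding gene overlaps F3 in GENCODE 29. Its nearest protein-coding neighbour, ABCD3, a peroxisomal transporter gene 10.5 kb away, had 35.4 TPM in MDA PCa 2b compared with 24.6 TPM for RC77 T/E, so the neighbour was higher in the line where F3 was lower. Among the 11159 protein-coding genes with 1 possible position of the decimal mark, the 5 whose levels in both lines lay closest to those of F3 were BLCAP, FDPS, CTSZ, LAMP1 and TMSB4X, at distances of 1.199 to 1.78 on the log2(TPM + 1) scale. Genes with an open mark were not searched and could lie closer. With 2 libraries such closeness describes the levels and no shared pattern.

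TFPI, the direct inhibitor of the tissue factor complex, was almost without transcript. It lies on chromosome 2 from 187464230 to 187565760 on the minus strand, and had 0.0194 TPM in MDA PCa 2b compared with 0.0306 TPM for RC77 T/E. In MDA PCa 2b 14222 genes were higher than TFPI, and in RC77 T/E 14349. Its neighbour CALCRL, a receptor gene 15.8 kb away, was low as well, at 0.0148 and 0.257 TPM.

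TFPI2 encodes a related protein with the same kind of inhibitory domains, which blocks plasmin and trypsin and is the weaker inhibitor of the tissue factor complex. The gene lies on chromosome 7 from 93885396 to 93890753 on the minus strand. It stood at 0.275 TPM in MDA PCa 2b compared with 54.4 TPM for RC77 T/E, with a log2 ratio of 5.44, and 1.31% of expressed genes had a larger ratio. The gap between the lines was thus that between a gene under the 1 TPM level and one well above it. GNGT1, which spans TFPI2 on the opposite strand, is listed at 0 in both lines. GNG11, 30.7 kb away, had 0.0488 and 1.88 TPM and was also higher in RC77 T/E.

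THBD, for thrombomodulin, showed the largest log2 ratio of the 9 members. It lies on chromosome 20 from 23045633 to 23049672 on the minus strand, and had 0.133 TPM in MDA PCa 2b compared with 138.1 TPM for RC77 T/E, a log2 ratio of 6.94. Only 74 of the 11624 expressed genes, 0.637%, had a larger ratio. PROCR lies on the same chromosome, from 35172072 to 35216240 on the plus strand. It had 4.90 TPM in MDA PCa 2b compared with 112.5 TPM for RC77 T/E, a 22.9-fold difference with a log2 ratio of 4.26, and it was the only one of the anticoagulant genes above 1 TPM in both lines. The protein-coding neighbours of THBD within 100 kb, SSTR4 and CD93, were between 0.0110 and 0.0266 TPM in both lines. PROCR is overlapped on the opposite strand by MMP24OS over 14496 bases, which was not analysed here, and the part of its reads in the PROCR value was not tested.

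Thrombomodulin and the protein C receptor are best known from the vessel wall, and THBD is also made by monocytes and squamous epithelium. Of 8 endothelial markers, 7 stayed under 1 TPM in both lines. PECAM1 had 0.0119 TPM in MDA PCa 2b but is at a listed 0 for RC77 T/E, CDH5 had 0.00455 and 0.00371 TPM, and TIE1 is listed at 0 in both. The exception was EGFL7, at 2.37 or 23.7 TPM in MDA PCa 2b compared with 13.6 or 135.9 TPM for RC77 T/E, depending on its open decimal mark. The summed level of the endothelial list lay between 2.64 and 23.9 TPM in MDA PCa 2b and between 14.5 and 136.9 TPM in RC77 T/E. Of 5 leukocyte markers, CD68 and CD14 were at 1 TPM or more in RC77 T/E, at 37.9 and 4.92 TPM against 0.663 and 0.0730 TPM in MDA PCa 2b. PTPRC, which marks every leukocyte, had 0.0113 TPM in MDA PCa 2b but is at a listed 0 for RC77 T/E, and the sum of the leukocyte list was 1.25 and 42.9 TPM. The part of CD68 and CD14 in the THBD difference was not tested. The sum of 7 platelet markers was 1.68 and 1.90 TPM, and that of 5 fibroblast markers 2.19 and 8.35 TPM.

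**Figure D2:**
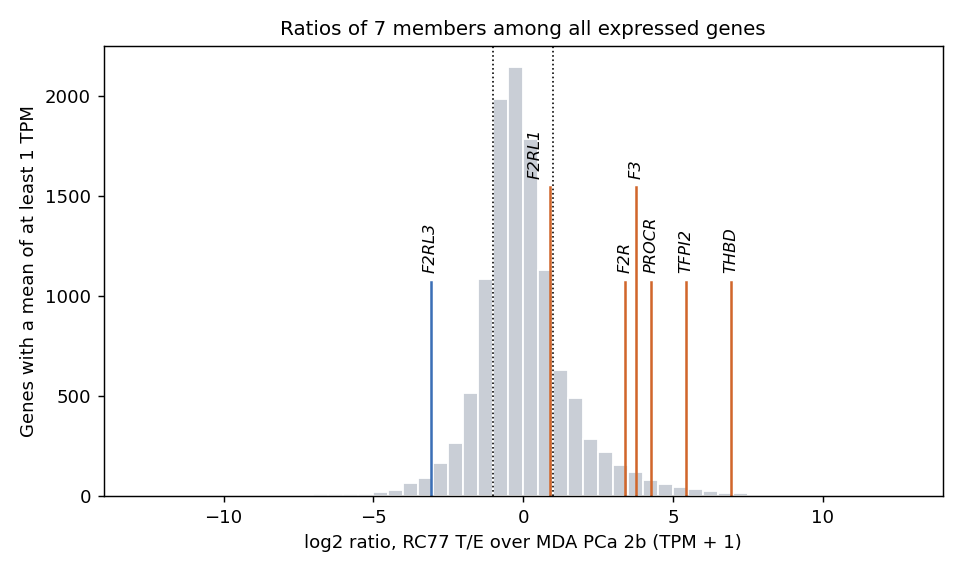
Histogram of the log2 ratio (RC77 T/E over MDA PCa 2b, TPM + 1) over the 11624 expressed genes, with colored lines at the 7 members that have a mean of at least 1 TPM and dotted lines at 2-fold. THBD at 6.94 and TFPI2 at 5.44 lie in the right tail, F2RL3 at -3.09 lies on the left, and F2RL1 at 0.89 lies inside the dotted lines.

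The balance of procoagulant to anticoagulant transcripts was taken as the TPM of F3 over that of its counterparts in the same library, which is free of any scaling between libraries. F3 exceeded TFPI 1985-fold in MDA PCa 2b compared with 17785-fold in RC77 T/E, and both ratios rest on TFPI values near 0. Against the sum of TFPI, TFPI2, THBD and PROCR the order was the opposite. That sum came to 5.33 TPM in MDA PCa 2b compared with 305.1 TPM for RC77 T/E, a 57.2-fold difference beside the 14.1-fold difference of F3. F3 was therefore 7.24 times the sum in MDA PCa 2b but 1.78 times the sum in RC77 T/E, and the balance was 4.06-fold higher in MDA PCa 2b, the line with less F3. Against TFPI and TFPI2 alone F3 stood at 130.9 times their sum in MDA PCa 2b but at 10.0 times in RC77 T/E. The MDA PCa 2b ratio rests on a sum of only 0.295 TPM. Against THBD and PROCR alone it was 7.66 and 2.17 times as high. The balance toward F3 was thus greater in MDA PCa 2b for each of these sums and smaller for TFPI by itself. The smaller sums are parts of the 4-gene sum and are no separate support for it. Such a ratio of transcripts is not a ratio of activities, since the proteins act at different steps.

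The make-up of the anticoagulant sum differed as well. In MDA PCa 2b, PROCR made up 92.0% of it, TFPI2 5.17%, THBD 2.50% and TFPI 0.365%. In RC77 T/E cells, THBD made up 45.3%, PROCR 36.9%, TFPI2 17.8% and TFPI 0.01003%. PROCR exceeded THBD 36.8-fold in MDA PCa 2b, whereas in RC77 T/E both were of similar level, with THBD 1.23 times PROCR. In RC77 T/E cells, then, transcripts for both membrane partners of the protein C pathway stood above 100 TPM, and in MDA PCa 2b only the receptor was above 1 TPM.

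**Figure D3:**
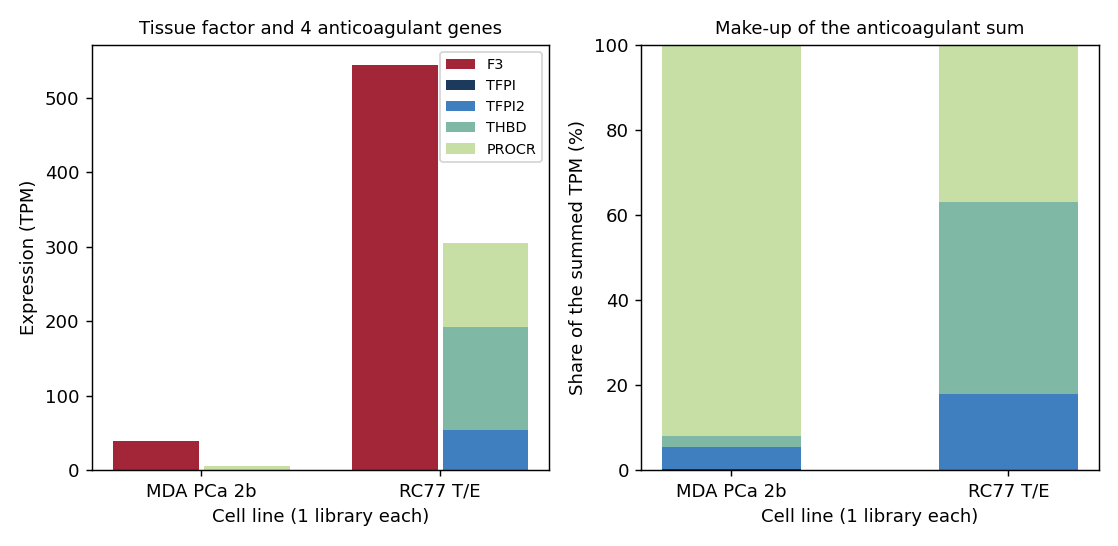
Left, TPM of F3 (red) beside the stacked TPM of TFPI, TFPI2, THBD and PROCR in each line. Right, the share of each of the 4 anticoagulant genes in their sum, in percent. The stack reaches 305.1 TPM in RC77 T/E against 5.33 TPM in MDA PCa 2b, and PROCR fills 92.0% of the MDA PCa 2b bar.

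The receptors followed a different order in each line. F2RL1 (PAR2, chromosome 5, 76818933 to 76835315, plus strand) was the highest in both, at 12.7 TPM in MDA PCa 2b compared with 24.3 TPM for RC77 T/E. The 1.91-fold difference was below 2-fold, with a log2 ratio of 0.89, which became 1.04 relative to the median of the expressed genes, and 21.2% of those genes had a larger ratio. F2R (PAR1, chromosome 5, 76716126 to 76735770, plus strand), the main thrombin receptor of most cells, had 0.521 TPM in MDA PCa 2b compared with 15.1 TPM for RC77 T/E, a 29.03-fold difference with a log2 ratio of 3.41. F2RL3 (PAR4, chromosome 19, 16888999 to 16892606, plus strand), the thrombin receptor that platelets also carry, went the other way. It had 7.58 TPM in MDA PCa 2b compared with 0.00715 TPM for RC77 T/E, with a log2 ratio of -3.09, and 2.29% of expressed genes had a lower ratio. F2RL2 (PAR3, chromosome 5, 76615482 to 76623413, minus strand), a receptor known mainly as a helper of other PARs, had 0.0248 and 0.0395 TPM.

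In MDA PCa 2b the order was F2RL1, F2RL3, F2R and F2RL2, and in RC77 T/E it was F2RL1, F2R, F2RL2 and F2RL3. Whether neighbours in these orders differ beyond the spread between libraries cannot be said with 1 library each. The summed TPM of the 4 receptors was 20.8 in MDA PCa 2b compared with 39.4 in RC77 T/E, 1.90 times as high. F2RL1 held 60.9% of the sum in MDA PCa 2b, close to its 61.5% in RC77 T/E. F2RL3 held 36.4% in MDA PCa 2b but 0.0181% in RC77 T/E, while F2R held 2.51% and 38.4%. The thrombin-cleaved receptor with a transcript above 1 TPM was therefore F2RL3 in MDA PCa 2b and F2R in RC77 T/E.

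**Figure D4:**
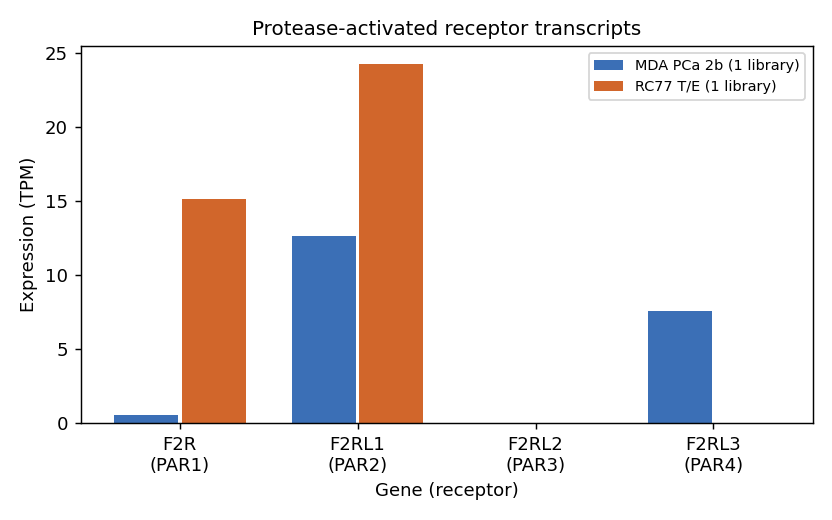
TPM of the 4 protease-activated receptor genes in MDA PCa 2b (blue) and RC77 T/E (orange), 1 library per line, on a linear axis from 0. F2RL1 is the tallest in both lines, and the second bar is F2RL3 at 7.58 TPM in MDA PCa 2b but F2R at 15.1 TPM in RC77 T/E, with F2RL2 too low to see.

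F2RL2, F2R and F2RL1 lie in a row on chromosome 5, with 92.6 kb between F2RL2 and F2R and 83.2 kb between F2R and F2RL1. F2RL2 lies within IQGAP2, a scaffold protein gene on the opposite strand that ends 7.9 kb before F2R. IQGAP2 had 23.1 TPM in MDA PCa 2b compared with 0.00626 TPM for RC77 T/E, which is the reverse of F2R. F2RL2 was low in both lines whatever the level of IQGAP2 around it. S100Z, 14.7 kb beyond F2RL1, is listed at 0 in both. On chromosome 19, CPAMD8 ends 341 bases from F2RL3 on the opposite strand and had 11.7 TPM in MDA PCa 2b compared with 0.663 TPM for RC77 T/E, higher in the same line as F2RL3. SIN3B, 8.5 kb to the other side, had 12.99 and 15.0 TPM, and NWD1, at a distance of 70.9 kb, had 1.10 and 0.0987 TPM. The libraries kept the strand, but whether the TPM values use it is not given in the sources used here, and the part of CPAMD8 reads in the F2RL3 value was not tested.

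The clotting factors themselves were mostly near 0. Of 16 coagulation factor genes, 6 are listed at 0 in both lines, and F5 and F12 reached 1 TPM in MDA PCa 2b and F8 and F12 in RC77 T/E cells. F12, the factor that starts the contact pathway, had 3.999 and 5.93 TPM. F7 and F10, which encode the partner and the substrate of tissue factor, were at most 0.1099 TPM, and F2, for prothrombin, had 0.0383 and 0.0345 TPM. Of 8 further anticoagulant genes, SERPINE2 and PROS1 had a mean of at least 1 TPM, beside 11624 of all 21382 genes. SERPINE2, which encodes the thrombin inhibitor protease nexin-1, had 0.523 TPM in MDA PCa 2b compared with 77.8 TPM for RC77 T/E, a log2 ratio of 5.69, close to that of TFPI2. PROS1, for the protein C cofactor protein S, had 0.779 and 2.36 TPM, and PROC itself had 0.0113 and 0.659 TPM. All 4 genes for vitamin K-dependent processing and factor export (GGCX, VKORC1, LMAN1 and MCFD2) were at 1 TPM or more in both lines, beside the 49.6% and 52.8% of all genes. GGCX, VKORC1 and LMAN1 were within 2-fold, and MCFD2 had a log2 ratio of 0.82 or 1.12 at the lowest or highest position of its open decimal mark. Of 5 genes linked to the exposure of tissue factor activity on the cell surface, ANO6, a lipid scramblase gene, had 6.16 and 25.0 TPM, whereas SMPD1 and XKR8 were 2.64-fold and 3.19-fold higher in MDA PCa 2b. By log2 ratio 1 of the 5 was past 2-fold toward RC77 T/E and 2 toward MDA PCa 2b, beside 19.4% and 20.0% of all expressed genes. The other 2 were within 2-fold with open decimal marks at their lowest position.

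Of 11 genes for proteases that can cut PARs, 5 had a mean of at least 1 TPM, beside 11624 of all 21382 genes. Of these 5, 3 were higher in MDA PCa 2b by 2-fold or more and 1 in RC77 T/E, beside 20.0% and 19.4% of all expressed genes. TMPRSS2, an androgen-regulated membrane protease that cuts PAR2, had 482.9 TPM in MDA PCa 2b compared with 0.108 TPM for RC77 T/E. KLK4 had at least 4.96 TPM in MDA PCa 2b but is at a listed 0 for RC77 T/E, and PRSS3, for a trypsin, had 37.5 and 6.398 TPM. MMP1, a collagenase that can cut PAR1, had 0.287 TPM in MDA PCa 2b compared with 14.4 TPM for RC77 T/E, higher in the same line as F2R. ST14, for the PAR2-cutting protease matriptase, was 1.66-fold higher in MDA PCa 2b.

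Of 19 signal transducer genes, 17 had a mean of at least 1 TPM, beside 11624 of all 21382 genes. Of the 17, 3 were higher in RC77 T/E by 2-fold or more and 4 in MDA PCa 2b, near the 19.4% and 20.0% of all expressed genes. GNA15, for a G protein subunit of the Gq class, had 0.0205 TPM in MDA PCa 2b compared with 30.5 TPM for RC77 T/E, while GNAQ of the same class had 11.6 and 13.6 TPM. GNAI1 had 0.0579 and 19.3 TPM. In the other direction, PLCB4, a phospholipase that Gq activates, had 25.3 TPM in MDA PCa 2b compared with 1.82 TPM for RC77 T/E, and ARRB1, which encodes an arrestin that shuts receptors off, had 9.06 and 0.197 TPM. Of 8 analysed genes that thrombin or PAR agonists are known to induce, 7 had a mean of at least 1 TPM, beside 11624 of all 21382 genes. Of the 7, 4 were higher in RC77 T/E by 2-fold or more, beside 19.4% of all expressed genes, and none in MDA PCa 2b, beside 20.0%. EGR1, an immediate-early transcription factor gene, had 0.362 and 53.4 TPM, PTGS2 had 0.0917 and 6.48 TPM, and CXCL1 had 0.603 and 4.01 TPM. CXCL8 and DUSP1 were within 2-fold. These genes answer to many other signals, and no PAR activity was measured. Over the 7 lists together, 41 of 71 genes had a mean of at least 1 TPM, beside 11624 of all 21382 genes. Of the 41, 10 were higher in RC77 T/E by 2-fold or more, 9 in MDA PCa 2b and 22 neither. Beside the 19.4% and 20.0% of all expressed genes past 2-fold toward RC77 T/E and MDA PCa 2b, these counts are near the background. With open decimal marks at the highest position both counts were 11, beside 21.1% of expressed genes toward RC77 T/E and 22.9% toward MDA PCa 2b. The lists had a median log2 ratio of 0.34 beside -0.15 over all expressed genes.

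**Figure D5:**
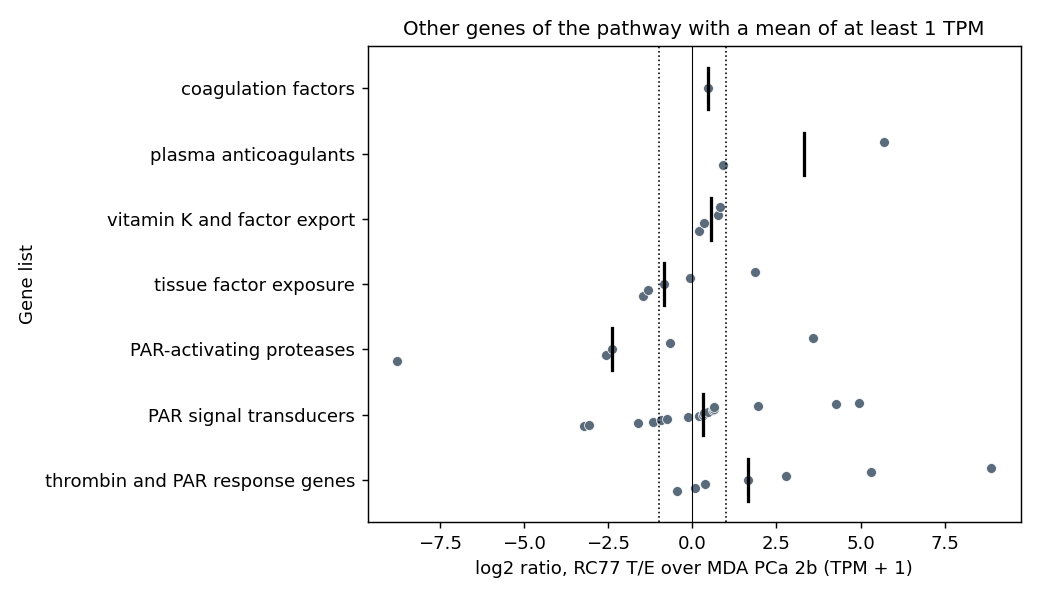
Log2 ratio (RC77 T/E over MDA PCa 2b, TPM + 1) for the 41 genes of 7 pathway lists with a mean of at least 1 TPM, 1 point per gene, with a black bar at each list's median and dotted lines at 2-fold. The list labeled plasma anticoagulants, which also holds the gene of protease nexin-1, has 2 points, SERPINE2 at 5.69 and PROS1 at 0.92. TMPRSS2 lies at -8.77. Open decimal marks are at their lowest position, and at its highest KLK4 would move from -2.58 to -8.96.

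The prostate lineage markers also differed between the lines. All 5 basal markers were higher in RC77 T/E by 2-fold or more, beside 19.4% of all expressed genes. KRT5 had 0.00435 and 4027 TPM and KRT14 had 37.4 and 3255 TPM. Of 6 luminal markers, 4 were higher in MDA PCa 2b by 2-fold or more, beside 20.0% of all expressed genes. KLK3 had 5323 TPM in MDA PCa 2b but is at a listed 0 for RC77 T/E. KRT8 and KRT18 were within 2-fold. The part of this lineage difference in the values of F3, THBD, PROCR, TFPI2 and the receptors cannot be told apart from that of the lines themselves. A listed 0 has to be read with care, since EEF1A1, used by every cell, is listed at 0 in MDA PCa 2b and at 2393 TPM in RC77 T/E. No member is listed at 0 in either line.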

How the data were processed

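The authors isolated total RNA with TRIzol, made paired-end directional libraries and deposited 1 table of TPM values, with the mean and standard error over both lines. Per the labels, CASAVA, FastQC 0.11.9, Trimmomatic 0.38, Salmon 1.2.0 and GRCh38 were used. The annotation behind the table is not given in the sources used here.

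In the deposited TPM columns, values of 1 or more with at least 3 decimals lack their decimal mark, a format other than the design assumed. Every placement of the mark that leaves from 1 up to 3 digits ahead of it was tried, and those that gave back the deposited mean and standard error were kept. All 9 members had 1 position. Of 22704 loci, 6492 had several, and the lowest was then used. The procedure was tested on simulated data. Loci of one symbol were summed. Overlaps came from GENCODE 29 and start regions from RefSeq. Named genes are the members, the genes of the lists, protein-coding neighbours within 100 kb and the 5 genes closest to F3. Members and lists were chosen with earlier results of these data known. CCN1 and CCN2 were not analysed here, and the values of 3 other list genes are not reported here. With 1 library per line no test was made. Alternatives covered thresholds, pseudocount, scaling, decimal position and the inhibitors summed. Python 3.11.15, numpy 2.4.6 and matplotlib 3.10.9 were used.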

Additional observations from a re-analysis of the deposited data

How the results depend on the processing

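The counts of members at the expression threshold stayed within 1.5 times with thresholds of 0.5 and 5 TPM, and taking the largest locus or the highest decimal position gave the same counts. No log2 ratio of a member changed direction under the alternatives run. With a pseudocount of 0.1 TPM the log2 ratio of F2RL3 went from -3.09 to -6.16, because its RC77 T/E value is near 0. Centering on the median of the expressed genes, or scaling to the upper quartile, raised the count of members past 2-fold toward RC77 T/E from 5 to 6, adding F2RL1. The share of all expressed genes past 2-fold was not computed under either setting, so the count of 6 has no background beside it. The balance of F3 depended on the genes summed: with TFPI and TFPI2 alone it was 130.9 (MDA PCa 2b) against 10.0 (RC77 T/E), and the log2 of the ratio between the lines was 3.71 in place of 2.02. Counts over the pathway lists stayed within 1.5 times under each alternative. No paired analysis was possible because there is only 1 library of each line. Unknown depth limits the folds that rest on values under 1 TPM, such as those of THBD, TFPI2, F2R and F2RL3.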
